A study of Mus musculus with 2 samples.

Results

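The genes described here are the mouse MHC class II genes and the gene of their transactivator. They were taken by symbol from the gene list of the count matrices as Ciita, Cd74, H2-Aa, H2-Ab1, H2-Eb1, H2-DMa, H2-DMb1, H2-DMb2, H2-Oa and H2-Ob, which makes 10 of 31053 genes, and all 10 were measured in both libraries. The cells were B cells sorted by flow cytometry from the lamina propria of the colon of female C57BL/6J mice, sequenced as single cells with the 10x Chromium 3′ chemistry. The day 14 library came from mice given 2% dextran sulfate sodium (DSS), a polysaccharide that injures the colonic epithelium, in their drinking water for 7 days and then left to recover for 7 days. The day 0 library came from untreated mice. A treatment tag reading DSS stands on both samples, and the day 0 state was taken from the titles, protocols and design. The sources used here give neither the sort markers nor the number of mice per library.

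MHC class II molecules sit on B cells, macrophages and dendritic cells and show peptides from engulfed proteins to CD4+ T cells. Ciita binds no DNA itself. It docks on a protein complex of RFX, NF-Y and CREB that occupies the X and Y boxes of class II promoters, and it switches these genes on as a group. B cells hold Ciita active through their own promoter of the gene, and the repressor Blimp-1, product of Prdm1, is known to silence it when B cells become plasma cells. Cd74 encodes the invariant chain, which fills the peptide groove during assembly. H2-Aa and H2-Ab1 encode the 2 chains of I-A, the class II molecule of C57BL/6 mice. H2-Eb1 encodes the beta chain of I-E, whose alpha chain these mice do not make. H2-DM, made of H2-DMa with H2-DMb1 or H2-DMb2, exchanges the invariant chain remnant for other peptides, and H2-O, made of H2-Oa and H2-Ob, holds H2-DM back.

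The promoter stretches that carry the X and Y boxes are shown because they are the sequence that class II genes share. They are RefSeq sequences of build GRCm38.p6, read 5′ to 3′ on the strand of the gene, and capitals mark the X box letters, AAC and then any 2 bases and then ATGATG, and the Y box letters TGATTGG. H2-Aa is read from chr17:34287842-34287898 on the minus strand, where the Y box letters begin 50 bases before the start and no X box letters were found. H2-Eb1 is read from chr17:34305753-34305837, H2-DMb2 from chr17:34145103-34145188 and H2-Ob from chr17:34238795-34238877, all on the plus strand.
H2-Aa: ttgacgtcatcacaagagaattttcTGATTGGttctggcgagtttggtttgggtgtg
H2-Eb1: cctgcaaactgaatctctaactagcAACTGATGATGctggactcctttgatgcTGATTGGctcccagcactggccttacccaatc
H2-DMb2: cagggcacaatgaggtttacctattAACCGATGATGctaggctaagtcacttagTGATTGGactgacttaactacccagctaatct
H2-Ob: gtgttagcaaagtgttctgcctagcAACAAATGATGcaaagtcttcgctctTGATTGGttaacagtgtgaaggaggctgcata
The gap between the X and Y box letters was 17 bases in H2-Eb1, 18 in H2-DMb2 and 15 in H2-Ob. H2-DMb1 held the X letters AACTGATGATG and the Y letters with a gap of 18 bases, and H2-Oa held the Y letters alone. The stretches of these 2 genes lie over annotated exons and are not printed. H2-DMa held neither set of letters in its 2 windows. Ciita, Cd74 and H2-Ab1 had no promoter sequence to read. Over 32851 promoter windows of 250 bases, searched on both strands, 39 (0.119%) held the X letters, 2375 (7.23%) the Y letters and 9 (0.0274%) both. Among the 7 class II genes with a window, 4 held the X letters, 6 the Y letters and 4 both. A match of letters is a description of the sequence and not a measured binding site.

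The genes lie in 3 places. On mm10, with the GENCODE M21 annotation, Ciita spans chr16:10480059-10528418 on the plus strand and overlaps Dexi on the other strand. The H2 members lie close together on chromosome 17 in the order H2-Oa, H2-DMa, H2-DMb2, H2-DMb1, H2-Ob, H2-Ab1, H2-Aa and H2-Eb1. H2-Oa starts at 34092340 and H2-Eb1 ends at 34316674. Cd74 lies on chromosome 18. H2-Oa, H2-DMa and H2-Eb1 overlap genes of the other strand and H2-DMa and Cd74 a gene of the same strand. The sources used here do not say how reads over such overlaps were counted. H2-DMb1 and H2-DMb2 share 369 stretches of 50 transcript bases, 27.2% of those of H2-DMb1 and 21.2% of those of H2-DMb2, so their split is less certain than the values of the other members. In the last 400 bases of transcripts, where 3′ libraries read, 27 of 351 stretches of H2-DMb1 (7.69%) were shared and none of H2-DMb2.

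The cells were those kept in the authors' log-normalized tables, 4692 at day 14 and 3290 at day 0, with 12317052 and 8690102 UMIs (molecular barcodes that count transcripts once each) and medians of 2241.5 and 2278.5 UMIs per cell. Clustering without the 10 genes gave 11 clusters. A plasma-like cluster, with 10 of 15 plasma cell markers among its 25 leading genes, held 30 cells at day 14 and 26 at day 0. A cluster led by Pclaf and Rgs13 held 17 and 34 cells. The other 9 clusters, 4645 and 3230 cells, are called B cells here. By their heavy chain constant UMIs, 76 B cells at day 14 and 101 at day 0 were class-switched to IgA or IgG, 3236 and 2378 were unswitched (IgM or IgD), and the others had too few such UMIs or no majority class. The 12 T cell markers reached 78 and 84 UMIs over all B cells, and 1 barcode per day carried macrophage or dendritic markers, with 153 and 211 class II UMIs. There were 17 kept barcodes found in both libraries. Neutrophil-like markers held 399 UMIs in B cells at day 14, of which 206 lay in 1 barcode, and 0 at day 0, and their part in the day comparison was not tested. Each day has 1 library, so nothing could be tested. Levels are CPM, the UMIs of a gene per 1000000 UMIs outside immunoglobulin and mitochondrially encoded genes, not divided by transcript length. Intervals are exact 95% intervals that cover counting error only.

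Class II transcripts made up a large part of the RNA of colonic B cells. The 9 class II genes together held 47830 CPM in B cells at day 14 and 52002 CPM at day 0, which was 115 and 123 UMIs per cell. Cd74 was the highest at 27308 and 28765 CPM. H2-Ab1 held 6669 and 7753 CPM, H2-Aa 6463 and 7175 CPM, and H2-Eb1 4352 and 4814 CPM. H2-DMb2 held 1345 and 1492 CPM against 195 and 292 CPM for H2-DMb1, so H2-DMb2 was the more abundant DM beta gene on both days. H2-DMa held 696 and 782 CPM, H2-Oa 413 and 433 CPM, and H2-Ob 390 and 495 CPM. H2-Oa was the higher of the H2-O genes at day 14 and H2-Ob at day 0. Ciita stood far below its targets, at 55.7 CPM (51.4 to 60.2) at day 14 and 89.7 CPM (83.1 to 96.6) at day 0. Its transcript was seen in 550 of 4645 B cells (11.8%) and 573 of 3230 (17.7%). After each cell was thinned to 1000 UMIs these shares were 5.41% and 8.77%.

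**Figure D1:**
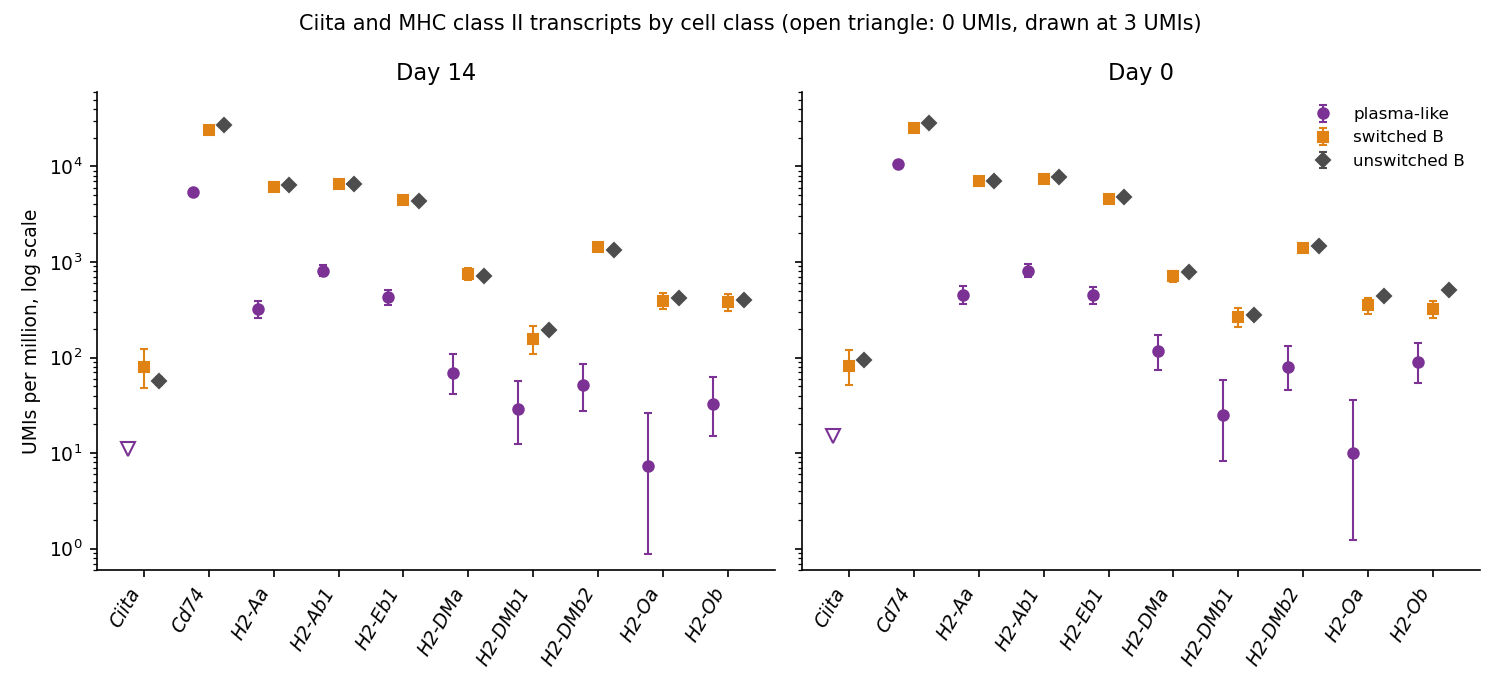
Level of Ciita and the 9 class II genes in CPM (log axis) in plasma-like, class-switched and unswitched B cells at day 14 (left) and day 0 (right), with exact 95% counting intervals. Switched and unswitched cells lie within 1.5-fold of each other except for H2-Ob at day 0, plasma-like cells lie below both, and Ciita in plasma-like cells is drawn as an open triangle at the level of 3 UMIs because none was counted.

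On the CPM scale, plasma-like cells held much less of every class II transcript than unswitched B cells, and no Ciita transcript was counted in them. The summed class II level was 7155 CPM in plasma-like cells and 47332 CPM in unswitched B cells at day 14, a ratio of 0.151 (0.145 to 0.158). At day 0 it was 12551 CPM in plasma-like cells and 51736 CPM in unswitched cells, a ratio of 0.243 (0.233 to 0.252). All 9 class II genes were at least 1.5-fold lower in plasma-like cells on both days, where 40.6% of 7423 genes at day 14 and 42.6% of 6817 genes at day 0 were that much lower. Their median log2 ratio was -3.35 and -3.41, beside -0.25 and -0.31 over all genes compared. For this and the other small classes, the shares of all genes include genes with few UMIs in the small class. Such genes can pass 1.5-fold by counting error. The clusters were built from other genes of the same cells, so these values describe the plasma-like cluster and are not a test of it.

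Ciita had 0 UMIs in the 30 plasma-like cells of day 14 and 0 in the 26 of day 0. At the CPM level of unswitched B cells, 15.7 and 18.5 UMIs would have been counted. On the CPM scale, against a floor of 3 counts per library, plasma-like cells were at least 5.22-fold lower on day 14. For day 0 the bound was at least 6.16-fold lower. Counted per cell the bounds were much weaker, with ratios at the same floor of 0.684 at day 14 and 0.505 at day 0.

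The class II genes differed in how far they were lower. Cd74, the invariant chain, was lowered least among the abundant members, with 5405 CPM in plasma-like cells and 27046 CPM in unswitched cells at day 14 (ratio 0.1999, 0.190 to 0.210) and 10516 and 28679 CPM at day 0 (ratio 0.367, 0.351 to 0.383). H2-Aa held 321 CPM in plasma-like cells against 6370 CPM in unswitched cells at day 14, a ratio of 0.0504, and 453 against 7092 CPM at day 0, a ratio of 0.0639. H2-Ab1, its partner chain, stood at ratios of 0.123 (0.108 to 0.141) at day 14 and 0.105 (0.0897 to 0.123) at day 0, above the intervals of H2-Aa on both days. H2-Eb1 stood at 0.0999 and 0.0939. The 2 chains of I-A were therefore unequal in plasma-like cells. H2-Aa made up 28.4% (23.4 to 33.8) of H2-Aa and H2-Ab1 UMIs in plasma-like cells and 49.3% in unswitched cells at day 14, and 35.9% (29.9 to 42.1) and 48.0% at day 0. Of H2-Aa, 1 plasma-like cell held 20 of 88 UMIs at day 14 and 1 held 35 of 90 at day 0. Of H2-Ab1, 1 cell held 44 of 222 and 1 held 41 of 161. The intervals do not cover such spread between cells. Cd74 took 75.5% of all class II UMIs in plasma-like cells against 57.1% in unswitched cells at day 14, and 83.8% against 55.4% at day 0.

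Among the peptide editing genes and their modulators, H2-DMb2 and H2-Oa had lower ratios than any I-A or I-E chain on both days. Their intervals held the H2-Aa ratio of the same day, so they could not be placed below H2-Aa beyond counting error. H2-DMb2 had 14 UMIs in plasma-like cells at day 14 and 16 at day 0, with ratios to unswitched cells of 0.0380 (0.0208 to 0.0638) and 0.0544 (0.0311 to 0.0884). H2-DMa had 19 and 23 UMIs, with ratios of 0.0981 and 0.147, and H2-DMb1 8 and 5 UMIs, with ratios of 0.152 and 0.0894. H2-Ob had 9 and 18 UMIs and ratios of 0.0828 (0.0378 to 0.157) and 0.179 (0.106 to 0.283). H2-Oa had 2 UMIs on each day, with ratios of 0.0175 (0.00212 to 0.0632) and 0.0228 (0.00275 to 0.0823). Single cells carried much of some of these counts: at day 14 1 cell held 5 of the 8 H2-DMb1 UMIs and 1 cell 6 of the 9 H2-Ob UMIs, and at day 0 1 cell held 7 of the 16 H2-DMb2 UMIs.

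Free RNA in the droplets was gauged from barcodes with T cell markers that the authors' tables leave out, 44 at day 14 and 58 at day 0, with medians of 2930 and 3211 UMIs. They were taken from 48 and 60 such barcodes, and the others were set aside for their mature B cell markers. That limit was chosen after the values were seen and takes out barcodes with more B cell RNA, so this background may be too low. Plasma-like cells had medians of 15994.5 and 18383.5 UMIs. The T-like barcodes held 1.25 and 2.16 class II UMIs each, against 65.4 and 95.8 per plasma-like cell, or 413 and 690 CPM against 7155 and 12551 CPM. Cd74 took 36.4% and 35.2% of class II UMIs in T-like barcodes, below its share in plasma-like cells. H2-Oa stood at 0.114 and 0.103 UMIs per T-like barcode and 0.0667 and 0.0769 UMIs per plasma-like cell, so its transcripts in plasma-like cells were within this background. H2-Ob at day 14 had 9 UMIs in 30 plasma-like cells against 5 in 44 T-like barcodes, which is above them per barcode, while its 32.8 CPM was below their 37.5 CPM. H2-DMa at day 14 had 0.633 UMIs per plasma-like cell against 0.159 per T-like barcode, or 69.3 against 52.5 CPM.

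On the CPM scale, low class II was found in nearly every plasma-like cell. The median plasma-like cell held 6738 CPM of class II at day 14 and 11871 CPM at day 0, against 49640 and 53372 CPM for the median unswitched cell. In UMIs per cell these medians were closer, at 60.5 and 89 against 113 and 120. The highest plasma-like cells held 270 and 248 class II UMIs, above those unswitched medians. At day 14, 29 of 30 plasma-like cells lay below the 5th percentile of unswitched cells, 28434 CPM, and at day 0, 25 of 26 lay below 31235 CPM. The cell outside this limit held 32987 CPM at day 14 and 53720 CPM at day 0, and the next highest held 16189 and 23574 CPM. The high cell of day 0 was the only plasma-like cell of that day with a majority of Ighg2b UMIs. Most plasma-like cells were IgA cells, 23 of 30 at day 14 and 24 of 26 at day 0, and these held 7166 and 11312 CPM.

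**Figure D2:**
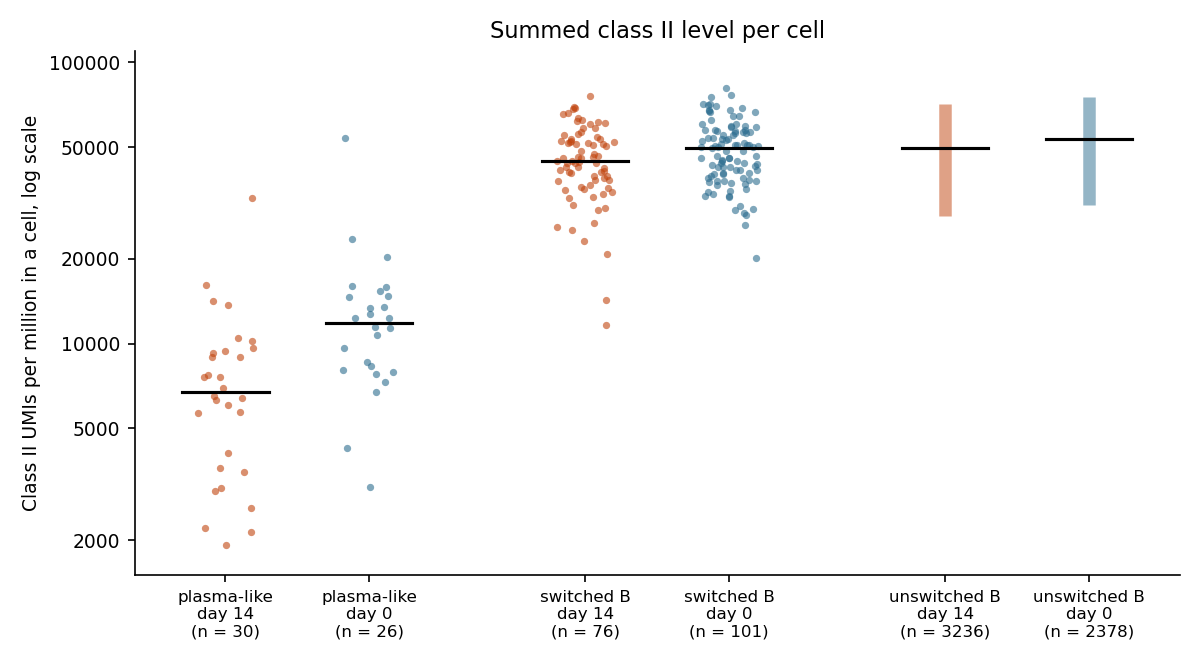
Summed level of the 9 class II genes per cell in CPM (log axis), by cell class and day. Points are single cells, black lines medians, and the bars of unswitched B cells run from their 5th to their 95th percentile. Medians of plasma-like cells, 6738 CPM at day 14 and 11871 CPM at day 0, lie under the unswitched bars, with 1 cell per day reaching into them.

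Counted per cell instead of in CPM, the gap of the sum was smaller. Plasma-like cells had more UMIs, with medians of 15994.5 at day 14 and 18383.5 at day 0 against 2352 and 2322 in unswitched cells. They held 65.4 class II UMIs each at day 14 and 95.8 at day 0, against 121 and 127 in unswitched cells, ratios of 0.540 and 0.756. For Cd74 the direction turned at day 0, with 80.3 UMIs per plasma-like cell against 70.3 per unswitched cell (ratio 1.14, 1.09 to 1.19), while at day 14 it was 49.4 against 69.3 (ratio 0.714, 0.678 to 0.751). The other 8 class II genes had per-cell ratios from 0.0624 to 0.557, and for H2-DMb1 at day 14 the interval held 1. The next ratios, between days, are on the CPM scale. Plasma-like cells held 0.570 times (0.537 to 0.605) the class II level at day 14 that they held at day 0. Most of this lay in Cd74, at 0.514 (0.481 to 0.550), while H2-Ab1 stood at 0.998 (0.811 to 1.23) and H2-Eb1 at 0.959 (0.723 to 1.28). Per cell, H2-Ab1 held 7.4 UMIs at day 14 and 6.19 at day 0, beside 65.4 and 95.8 for the class II sum. The 15 plasma-like markers held 107740 and 177390 CPM and the 11 germinal center markers 273 and 685 CPM. The part of these differences was not tested. Only 30 and 26 cells enter these values. Markers of macrophages and dendritic cells held 634 and 740 CPM in plasma-like cells, from 2 of 18 genes with Lyz2, C1qa and Csf1r at 0, against 176 and 187 CPM in unswitched cells, and their part was not tested.

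Class-switched B cells kept class II at nearly the level of unswitched ones. The sum was 44091 CPM in switched cells and 47332 CPM in unswitched cells at day 14, a ratio of 0.932 (0.914 to 0.949), and 46965 and 51736 CPM at day 0, a ratio of 0.908 (0.893 to 0.923). None of the 9 genes was 1.5-fold lower at day 14, where 21.1% of 7389 genes were. H2-Ob alone was at day 0, at 320 CPM in switched and 507 CPM in unswitched cells (ratio 0.631, 0.511 to 0.771), where 19.6% of 6821 genes were. These shares include genes with few UMIs in switched cells, which can pass 1.5-fold by counting error. At day 14 H2-Ob stood at 0.962 (0.777 to 1.18). Cd74 was lower in switched cells on both days, at 0.886 (0.863 to 0.909) and 0.871 (0.851 to 0.891). H2-Ab1 stood at 0.999 (0.951 to 1.05) and 0.970 (0.930 to 1.01), and H2-Eb1 at 1.03 (0.967 to 1.09) and 0.949 (0.899 to 1.001).

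Ciita had 20 UMIs in switched cells at day 14 and 25 at day 0, or 79.5 and 80.7 CPM. Its ratio to unswitched cells was 1.39 (0.843 to 2.18) at day 14 and 0.867 (0.556 to 1.29) at day 0. Both intervals held 1. Counted per cell the ratio was 1.80 (1.09 to 2.81) at day 14 and 1.08 (0.695 to 1.62) at day 0, so the day 14 interval held 1 on the CPM scale and not per cell. IgA cells were the largest switched class, 51 cells with 42913 CPM of class II at day 14 and 75 cells with 46603 CPM at day 0. The Ighg2b class, 21 and 22 cells, held 44765 and 48845 CPM. Switched cells had median totals of 3233 and 2932 UMIs against 2352 and 2322 in unswitched cells. Per cell their class II counts were 1.204 times those of unswitched cells at day 14 and 1.14 times at day 0, the other way round from the CPM. At day 14 none of the 44 T-like barcodes met the rule for switched cells and 7 that for unswitched cells, and at day 0 it was 4 and 13 of 58. The part of such barcodes in these ratios was not tested.

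The cluster led by Pclaf and Rgs13, which mixes cell cycle genes with genes of the germinal center reaction, lay between plasma-like and unswitched cells on the CPM scale. Its class II level was 26176 CPM at day 14 and 28768 CPM at day 0, ratios to unswitched cells of 0.553 (0.536 to 0.571) and 0.556 (0.543 to 0.570). At least 1.5-fold lower there were 8 of 9 class II genes at day 14, beside 28.7% of 7370 genes, and 7 of 9 at day 0, beside 25.5% of 6839 genes. H2-DMa was within 1.5-fold on both days, at 0.719 and 0.761, and H2-Eb1 at day 0, at 0.692. Per cell it was the highest class, with 225 and 195 class II UMIs against 121 and 127 in unswitched cells, beside median totals of 8281 and 5913 UMIs against 2352 and 2322. Ciita had 14 and 19 UMIs there and ratios of 1.68 (0.913 to 2.85) and 0.886 (0.529 to 1.40), with 1 inside both intervals, and per-cell ratios of 5.63 (3.06 to 9.55) and 2.45 (1.46 to 3.86). B2m, the light chain of MHC class I, stood at 0.505 and 0.290 in the same cells.

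Between the days, Ciita had a lower ratio than any class II gene, and its interval overlapped that of H2-DMb1 alone. In B cells Ciita held 55.7 CPM (622 UMIs) at day 14 and 89.7 CPM (687 UMIs) at day 0, a ratio of 0.621 (0.556 to 0.693), and the class II sum stood at 0.920 (0.916 to 0.924). Past 1.5-fold lower were 4.46% of 8786 genes and past 1.5-fold higher 1.40%, and Ciita was the 1 member of 10 past this size. None of the 9 class II genes was, though all 9 had ratios below 1. Their median log2 ratio was -0.15, beside -0.08 over all genes. In unswitched cells the Ciita ratio was 0.613 (0.541 to 0.694), where 4.37% of 8327 genes were past 1.5-fold lower and 1.69% past 1.5-fold higher. It was 0.626 (0.484 to 0.810) in unclassed cells. In switched cells it was 0.985 (0.519 to 1.85), on 20 and 25 UMIs.

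Cd74 stood at 0.949 (0.944 to 0.955) and was among the members with the smallest difference. The I-A chains H2-Aa and H2-Ab1 stood at 0.901 (0.891 to 0.911) and 0.860 (0.851 to 0.870), and H2-Eb1 at 0.904 (0.892 to 0.916). Of the DM genes, H2-DMa stood at 0.890 (0.861 to 0.921) and H2-DMb2 at 0.902 (0.880 to 0.924). H2-DMb1 was lower, at 195 CPM at day 14 and 292 CPM at day 0, a ratio of 0.667 (0.628 to 0.708) that lies just inside 1.5-fold. The 2 H2-O genes differed from each other, with H2-Ob at 0.787 (0.753 to 0.822) and H2-Oa at 0.954 (0.912 to 0.998). H2-DMb1 made up 12.5% of H2-DMb1 and H2-DMb2 UMIs in unswitched cells at day 14 and 16.0% at day 0. With scaling factors that equalize most genes (TMM), every ratio moved up by 0.10 on the log2 scale. The class II sum then stood at 0.983, Cd74 at 1.02 and H2-Oa at 1.02, so the direction of these 2 genes turned, while Ciita stood at 0.664 and the other 7 class II genes stayed below 1.

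**Figure D3:**
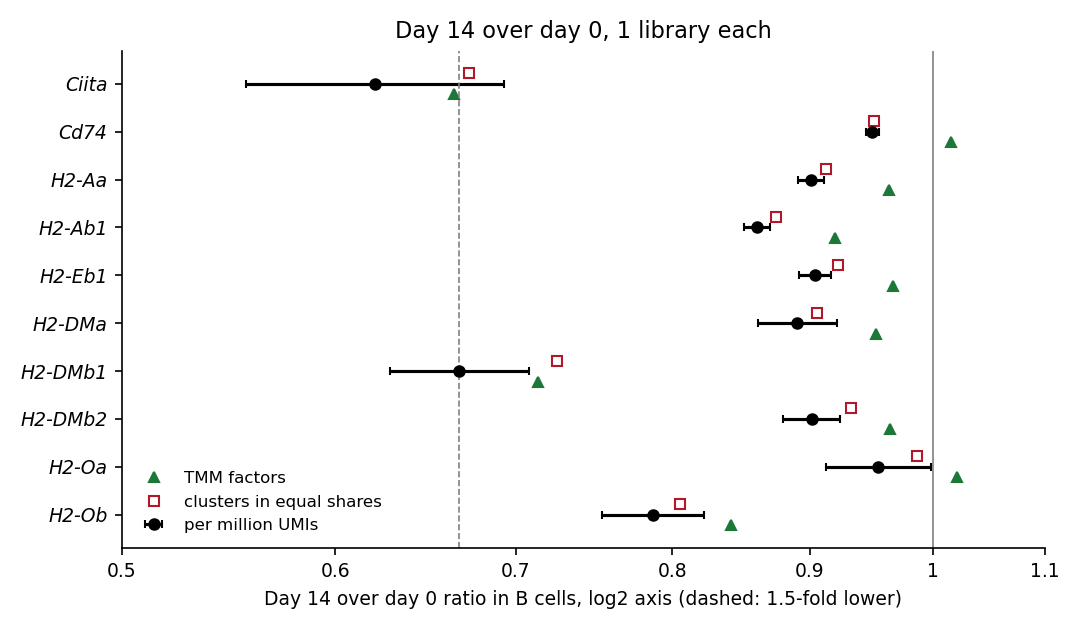
Ratio of day 14 over day 0 in B cells for each gene (log2 axis), with exact 95% counting intervals on the black points. Green triangles use TMM factors and open squares give each cluster the same share on both days. Ciita and H2-DMb1 stand near the dashed line of 1.5-fold lower and the other 8 genes between 0.787 and 0.954 on the black points.

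The make-up of the B cells differed between the days, and its part in the Ciita difference was not tested. The cluster led by Rasgef1b, Gpr183 and Pmaip1, with high Ciita, held 604 of 4692 cells (12.9%) at day 14 and 935 of 3290 (28.4%) at day 0. The cluster led by Slfn2 and Tifa held 25.6% and 12.9%. A cluster led by the interferon-induced genes Tgtp2, Serpina3f and Ifi47 held 369 cells at day 14 and 11 at day 0. With each cluster given the same share on both days the Ciita ratio was 0.672, short of 1.5-fold and inside the interval of 0.556 to 0.693 given above, and the class II sum 0.928. Within the 9 clusters the class II sum was below 1 in 9, with the interval below 1 in 8 and ratios of 0.864 to 0.995. Ciita was below 1 in 7 of 9 clusters, with the interval below 1 in 3, and ranged from 0.340 to 1.36. The lowest of these is that of the interferon-led cluster, with 36 and 3 Ciita UMIs, fewer than the 50 UMIs asked of a gene elsewhere.

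Ciita was lower at day 14 beyond counting error in the cluster led by Notch2, Kdm6b and Acot2, at 48.2 and 102.8 CPM (ratio 0.469, 0.328 to 0.669). The same held in the cluster led by Slfn2, at 50.1 and 81.3 CPM (ratio 0.617, 0.458 to 0.836), and in that led by Rasgef1b, at 85.7 and 132.7 CPM (ratio 0.646, 0.522 to 0.795). It was above 1 in the heat shock cluster led by Hspa1a, Hspa1b and Dnajb1, at 143.3 and 128.2 CPM (ratio 1.12, 0.660 to 1.97), and in that led by Rgs1, Nt5e and Cd80, at 79.4 and 58.5 CPM (ratio 1.36, 0.712 to 2.57). H2-Ab1 was the member with the most even difference, below 1 with its interval in 9 of 9 clusters. H2-Oa was below 1 in 4 of 9.

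The order of the clusters by Ciita was not their order by class II. On the CPM scale, the lowest class II level among clusters of at least 50 cells was in that led by Cfp, Cd9 and Srm. It was 36097 CPM at day 14 and 39444 CPM at day 0, and Ciita there was also low, at 40.0 and 45.8 CPM. Per cell this cluster held 128 and 131 class II UMIs, above the 115 and 123 of all B cells. Its median totals were 3224.5 and 3069 UMIs, against 2233 and 2268.5 in all B cells. The heat shock cluster had the highest Ciita at day 14 and the second lowest class II level, 42643 CPM. The highest class II level was 52959 CPM at day 14, in the cluster led by Egr1, Myc and Egr3, and 56019 CPM at day 0, in the cluster led by Emp3, Cystm1 and Dnajb2. Ciita in these was 50.7 CPM at day 14 and 63.5 CPM at day 0. Over clusters of at least 50 cells, Pearson's r between the 2 levels was -0.26 at day 14 (9 clusters) and 0.34 at day 0 (8 clusters), as a description of clusters that share a library. At day 14 the interferon-led cluster held 50085 CPM of class II against 47630 CPM in other B cells (ratio 1.05, 1.04 to 1.06), with Ciita at 39.5 against 57.1 CPM (ratio 0.692, 0.480 to 0.969) and H2-Oa at 516 against 404 CPM (ratio 1.28, 1.16 to 1.40).

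**Figure D4:**
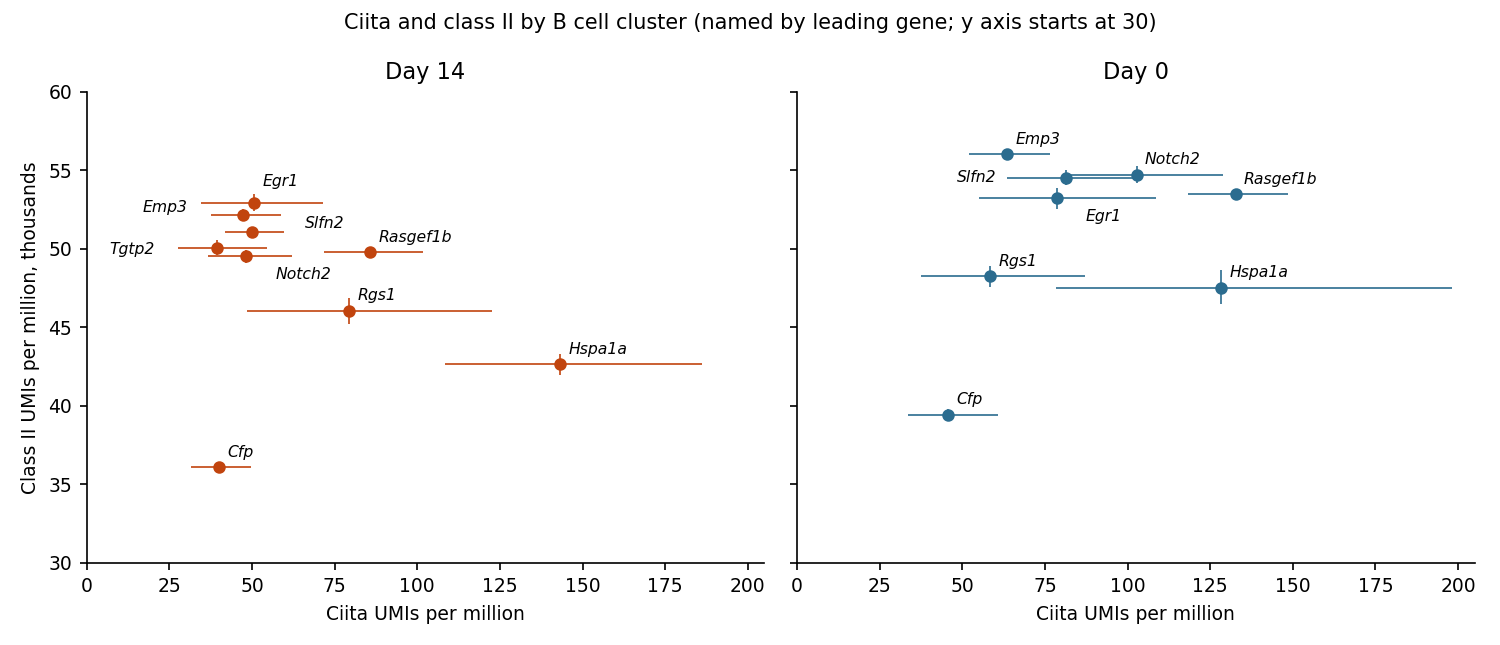
Level of Ciita (x axis) and of the 9 class II genes together (y axis, in units of 1000 CPM, starting at 30) in CPM, for each B cell cluster of at least 50 cells at day 14 (left) and day 0 (right), named by its leading gene. Lines are exact 95% counting intervals. The Cfp-led cluster lies lowest on the class II axis on both days, and clusters between 40 and 143 CPM of Ciita at day 14 show no common order on the 2 axes.

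Cell by cell, hardly any relation of Ciita and class II was seen, in counts too sparse to show how close it is. Each B cell was thinned to 1000 UMIs, which left 4568 cells at day 14 and 3194 at day 0. At day 14 the 247 cells with a Ciita UMI held 51.1 class II UMIs on average against 50.2 in the 4321 cells without, a ratio of 1.02 (1.001 to 1.04). At day 0 the 280 cells with one held 54.4 against 53.9 in the 2914 without, a ratio of 1.01 (0.993 to 1.03). Pearson's r was 0.015 and 0.0093. The thinned cells held 0.056 and 0.097 Ciita UMIs on average. In counts so sparse, r and the ratio would be small even for a close relation, and a weak one could not be seen. Read the other way, with cells put in 4 equal groups from the lowest to the highest class II level, Ciita UMIs per 1000 cells were 50.8, 56.0, 59.5 and 56.9 at day 14 and 83.9, 115, 95.2 and 92.7 at day 0. The intervals of the 4 groups overlapped on each day.

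Single members gave the same picture. The ratio of cells with over cells without a Ciita UMI ran from 0.999 for H2-Aa to 1.16 for H2-DMa at day 14, and from 0.905 for H2-DMb1 to 1.06 for H2-DMa at day 0. The interval held 1 for all 9 genes on both days. H2-DMa, the alpha chain of the peptide editor, stood at 1.16 (0.999 to 1.34) and 1.06 (0.928 to 1.22). Among switched cells the ratio was 1.11 (0.970 to 1.26) at day 14 on 5 cells with Ciita and 1.19 (1.09 to 1.30) at day 0 on 10 such cells. An interval over UMIs does not cover the spread between so few cells.

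**Figure D5:**
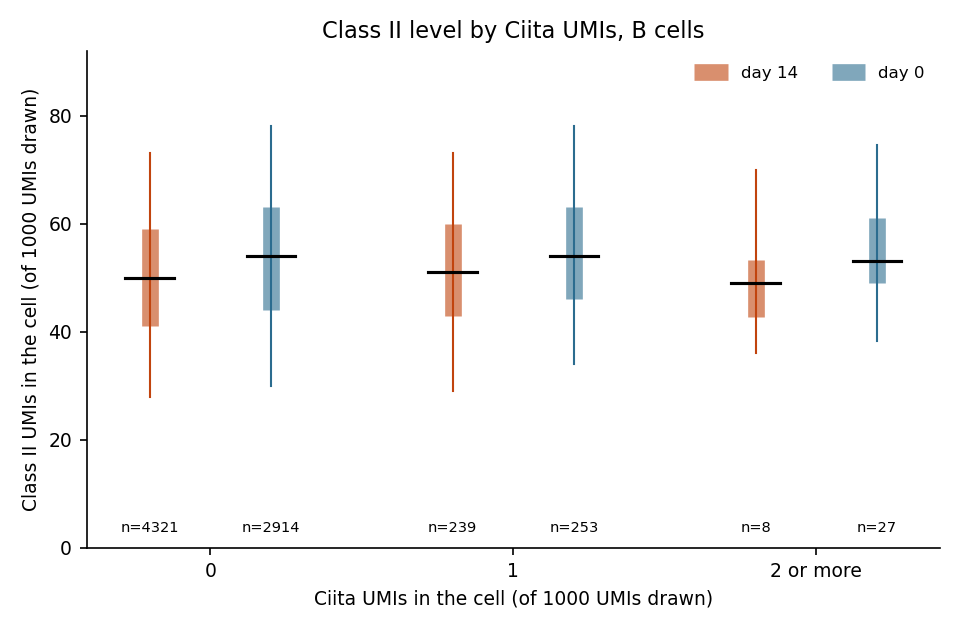
Class II UMIs per B cell (y axis) by the number of Ciita UMIs in the cell (x axis), both after thinning to 1000 UMIs, at day 14 and day 0. Black lines are medians, boxes the 25th to 75th percentile and thin lines the 5th to 95th percentile. Medians run from 49 to 51 at day 14 and from 53 to 54 at day 0 over the 3 Ciita classes.

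The abundant class II genes went together with each other more than with Ciita. Across thinned B cells, r between Cd74 and H2-Ab1 was 0.37 at day 14 and 0.39 at day 0, between Cd74 and H2-Aa 0.34 and 0.32, and between H2-Aa and H2-Ab1 0.30 and 0.28. Each of Cd74, H2-Aa, H2-Ab1 and H2-Eb1 correlated with the sum of the other class II genes at r from 0.34 to 0.47, and the DM and H2-O genes, with fewer UMIs, at 0.061 to 0.17. Ciita with the single members gave r from -0.021 to 0.029. Some pairs of the scarce members lay in the same range, such as H2-DMb1 with H2-DMb2 at day 0 (-0.0042) and H2-Oa with H2-Ob at day 0 (0.0090). These are descriptions over cells of 1 library per day. Thinning fixes the total, and genes with more UMIs can reach a higher r.

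Among 1777 other genes compared on both days, at full depth on ln(1 + UMIs per 10000), those most like the class II sum were Cd79a, H2-D1, Malat1, B2m, Fth1, Ly6e, Shisa5 and Eif1. Cd79a, a chain of the B cell receptor complex, had r of 0.25 at day 14 and 0.17 at day 0, and the class I heavy chain gene H2-D1 0.16 and 0.17. Ciita had 0.015 and 0.027, and 222 genes had a higher value than Ciita when the lower of the 2 days was taken for each. The median gene had -0.015 on each day, so Ciita ranked above most genes. Its 622 and 687 UMIs were not far above the 500 per library asked of each gene, and genes with more UMIs can reach a higher r. The genes most like Ciita were Pou2f2, Ltb, Filip1l, Tsc22d3, Cd69, Ms4a1, Ptpn6 and Jund, all with r of at most 0.077.

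Genes that act with or on class II were read from lists, through members with at least 20 UMIs over both groups. The shares of all genes set beside the lists are of genes with at least 50 UMIs, so the 2 are not on the same limit. In B cells at day 14 over day 0, where 1.40% of all genes were past 1.5-fold higher and 4.46% lower, 0 of 7 genes of the promoter complex passed this size. Nfyb, an NF-Y subunit, stood at 0.763 (0.657 to 0.887) and Rfxap, an RFX subunit, at 1.1999 (0.998 to 1.45). Of 9 factors known to act on Ciita, 1 was higher and 1 lower. Irf1, a transcription factor of the interferon response, held 87.9 CPM at day 14 and 42.7 CPM at day 0 (ratio 2.06, 1.82 to 2.34), and 1.72 was its ratio without the interferon-led cluster. Zbtb32, the 1 lower, stood at 0.645 (0.305 to 1.36) on 16 and 17 UMIs, fewer than the 50 behind the shares of all genes. Ets1 stood at 0.842 (0.812 to 0.872). The list median was -0.13 on the log2 scale, beside -0.08 over all genes.

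Of 8 antigen processing genes none passed 1.5-fold between the days, beside the 1.40% higher and 4.46% lower of all genes. Lgmn, a protease of endosomes, stood at 1.41 (1.31 to 1.51), Ctss, which cuts the invariant chain, at 1.18 (1.13 to 1.23), Ctsd at 0.822 and Ctsl at 0.768. Cd83, known to oppose the ubiquitin ligase March1 that takes class II from the cell surface, stood at 0.728 (0.707 to 0.750) and March1 at 0.923 (0.815 to 1.05). Of the partners of surface CD74, the ligand gene Mif stood at 1.04, Cd44 at 0.720 and Cxcr4 at 0.730. H2-Eb2, a further class II gene of the locus, stood at 0.803 (0.731 to 0.882). Of the class I genes, 2 of 9 were past 1.5-fold higher and none lower. Nlrc5, the class I counterpart of Ciita, held 6.26 CPM (70 UMIs) at day 14 and 1.83 CPM (14 UMIs) at day 0, a ratio of 3.43 (1.91 to 6.59). Tap1, a peptide transporter subunit, stood at 1.74 (1.55 to 1.95), B2m at 1.096 and H2-D1 at 0.867. Without the interferon-led cluster Nlrc5 stood at 2.82 and Tap1 at 1.51.

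The factors known to act on Ciita were next set between plasma-like and unswitched B cells. Pax5, which fixes B cell identity, had 1 UMI at day 14 (ratio 0.0312, 0.000789 to 0.174) and none at day 0 (7.90-fold lower at the floor of 3 counts). Ets1 stood at 0.0986 and 0.134, and Irf8 at 0.198 and 0.205. In all, 5 of 7 measured factors were lower at day 14 and 4 of 7 at day 0, when 2 were higher. Over all genes 40.6% were lower at day 14, and 42.6% were lower and 24.0% higher at day 0. The interval lay below 1 for 3 of the 7 on each day. Prdm1, with fewer than 20 UMIs and named after its values were seen, had 8 UMIs in 30 plasma-like cells against 7 in 3236 unswitched cells at day 14 and 2 in 26 against 8 in 2378 at day 0. Of 7 promoter complex genes, 3 were lower on each day, each on 3 UMIs or fewer in plasma-like cells, and Rfxank was higher at day 0 on 5 UMIs. These shares are near those of all genes.

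The proteases of the class II pathway were not low as a group in plasma-like cells, with 4 of 8 higher and 3 lower on both days. Over all genes 25.5% were higher and 40.6% lower at day 14, and 24.0% and 42.6% at day 0. Ctsb stood at 6.21 (4.88 to 7.83) at day 14 and 8.54 (6.67 to 10.8) at day 0, and Ctsz at 2.42 and 1.80. Ctss stood at 0.439 (0.340 to 0.559) and 1.03 (0.831 to 1.26), and Lgmn at 0.422 and 0.657. March1 stood at 0.0615 on 1 UMI at day 14 and had none at day 0 (4.19-fold lower at the floor of 3 counts). Cd83 stood at 0.122 and 0.4997. Cd44 was higher, at 7.88 and 6.25. Of the class I genes 6 were at least 1.5-fold higher on each day, of 9 measured at day 14 and 8 at day 0, and Nlrc5, with 0 UMIs, was lower at day 14. B2m was among them at 1.65 (1.57 to 1.74) and 2.68 (2.55 to 2.82), on the same scale on which the class II sum stood at 0.151 and 0.243.

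In switched cells Cd44 was higher, at 207 CPM against 27.8 CPM in unswitched cells at day 14 (ratio 7.45, 5.40 to 10.1) and 197 against 34.6 CPM at day 0 (ratio 5.68, 4.196 to 7.60), where 17.4% and 13.6% of genes were 1.5-fold higher. Cd83 stood at 1.32 (1.16 to 1.49) and 1.35 (1.22 to 1.48) and Ets1 at 0.766 and 0.703. Pax5 stood at 0.340 (0.163 to 0.628) on 10 UMIs at day 14 and 0.784 (0.521 to 1.14) on 29 UMIs at day 0. None of the 9 class I genes was past 1.5-fold at day 14. At day 0 H2-Q7 was lower, at 0.644 (0.462 to 0.876), as 1 of 8 measured.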

How the data were processed

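The authors deposited UMI counts per gene and barcode. The file headers name Cell Ranger 3.0.1, and the submitters' processing notes name mm10 and Seurat 3.0. Neither aligner settings nor the annotation is stated there. A second deposited table per library is on a natural log scale, the log of 1 plus the UMIs per 10000 of the cell's total: all 46920 values of the 10 genes at day 14 and 32900 at day 0 matched the counts within a relative tolerance of 0.001. They served to choose the cells, and all levels come from the counts. The barcodes left out of them, 88 at day 14 and 86 at day 0, failed a filter the sources do not give.

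The members, gene lists and comparisons were chosen with earlier results of these data known. The 10 members are all named. Of each list the most abundant measured gene and up to 4 with the largest ratio were eligible to be named. A few genes, and 1 alternative choice of plasma-like cells, are not reported here.

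Counts scaled to 10000 per cell and logged, with 2000 variable genes (without the members, immunoglobulin, mitochondrial and ribosomal protein genes), 20 principal components, 20 neighbours and Leiden clustering at resolution 0.8 (Scanpy 1.11.5, leidenalg 0.10.2), gave the clusters. The plasma-like name took most markers among 10 leading genes and at least 3 among 25. Switched cells had at least 3 heavy chain constant UMIs with over 50% from IgA, IgG or IgE genes. T-like barcodes had at least 3 T cell marker UMIs and at most 3 of mature B cells, a limit chosen after the values were seen. UMIs were summed per library and class. Ratios have exact conditional, levels exact Poisson and shares exact Clopper-Pearson 95% intervals (SciPy 1.17.1). A gene was compared from 50 UMIs over both groups, a size of 1.5-fold is a description, and a count of 0 was set to a floor of 3 counts. There were no replicates and no p-values. No doublet caller was run, and cells above 2 times the median UMIs were left out in an alternative. TMM factors came from edgeR 4.0.16. Of 31053 gene IDs, 30934 (99.6%) were in GENCODE M21. The scripts were tested on simulated data.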

Additional observations from a re-analysis of the deposited data

Results flagged for a closer look

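In 3 cases a cluster's day 14 over day 0 ratio lay above 1 with its whole interval while that of unswitched B cells lay below 1. Cd74 stood at 1.02 (1.0003 to 1.05) in the cluster led by Egr1, Myc and Egr3, at 30158 CPM at day 14 and 29490 CPM at day 0, against 0.943 in unswitched cells. H2-DMa stood at 1.32 (1.09 to 1.59) in the cluster led by Rgs1, Nt5e and Cd80, at 806 and 612 CPM, against 0.897 in unswitched cells. H2-Ob stood at 1.33 (1.01 to 1.74) in the same cluster, at 405 and 305 CPM, against 0.782 in unswitched cells. The differences were not tested, and 9 clusters and 10 genes were looked through.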

How the results depend on the processing

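No paired analysis was possible because each day has 1 library, and for the same reason no replicate could be left out. The Ciita ratio between days kept its direction under every alternative run. The class II ratio of 0.920 was 0.983 with TMM and 0.986 with median-of-ratios factors, 0.934 without cells above 2 times the median UMIs, 0.928 with clusters in equal shares, 0.932 with cells thinned, and 0.933 both with the left-out barcodes and per cell. The 123 genes higher became 217 with TMM and 222 with median-of-ratios factors, 1774 from 1 UMI and 38 from 200 UMIs, and the 392 lower became 237, 234, 2260 and 109. In plasma-like cells the class II ratio, 0.151 at day 14 and 0.243 at day 0, was 0.0896 and 0.112 over all UMIs including immunoglobulin, and 0.540 and 0.756 per cell. At day 0 it was 0.225 with the members among the genes clustered. The Ciita bounds at 3 counts, 0.192 and 0.162, became 0.684 and 0.505 per cell. The class II ratio in switched cells, 0.932 and 0.908, was 0.910 and 0.878 with over 80% of constant UMIs and turned to 1.204 and 1.14 per cell. With at least 10 such UMIs, which left 10 switched cells at day 14 and 8 at day 0, it was 0.871 at day 0, and Ciita was 0.690 at day 14 in place of 1.39 and 1.25 at day 0 in place of 0.867. Per cell, Ciita in switched cells was 1.80 and 1.08. The ratio of 1.02 in cells with over cells without Ciita at day 14 was 0.9999 at full depth, and that of 1.01 at day 0 was 1.013 (1.005 to 1.02), an interval without 1. The per-cell values, and those without interferon-led, myeloid-like or shared barcodes, were chosen after seeing the data. Causes were not tested. Ciita counts of at most 25 UMIs in switched and none in plasma-like cells limit what depth can show.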
